A study of Drosophila melanogaster with 2 samples.

Results

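Enrichment of eGFP-tagged disco-r, a zinc-finger protein, was described at 9 genes of the ecdysone response in the fly: EcR, usp, Eip75B, br, Hr3, Hr4, Hr39, Eip78C and ftz-f1. Each gene was found by its symbol in the Ensembl annotation, and a region was counted at a gene where its summit, the position of highest enrichment, lay in the gene body or within 2 kb of it. These are 9 of 13945 protein-coding genes. They held 23 of the 2334 peaks that passed the irreproducible discovery rate (IDR, which measures how alike the replicates rank regions). These 2334 were the regions of highest signal over both replicates together. Passing alone therefore does not show that both replicates ranked a region high. The series is a chromatin immunoprecipitation with sequencing (ChIP-seq) experiment on whole Drosophila melanogaster embryos of both sexes, collected at 0 to 24 h, from a transgenic line that expresses disco-r fused to eGFP. An antibody against GFP was used. The 2 samples, biological replicates 2 and 3, form 1 group, so nothing was compared between conditions. The collection spans all of embryogenesis and all tissues, so neither a stage nor a cell type can be assigned to a peak, and the lists hold no marker values. The tagged gene is disco-r in most labels, while 1 label gives disco, a related gene. Nothing in the labels says which cells expressed the fusion protein. Input and control libraries were not analysed here. The signal of a region is the authors' own enrichment value with no stated scale, so it is read here only as an order within 1 list, and the read depth behind it is unknown.

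The steroid 20-hydroxyecdysone times moulting and metamorphosis in insects, and in the Drosophila embryo a pulse of it is needed for morphogenetic movements such as germ band retraction and head involution. The hormone binds EcR, a nuclear receptor that acts as a heterodimer with usp, the fly member of the retinoid X receptor family. The bound receptor turns on early genes such as Eip75B and br, and their products together with the early-late receptors Hr3, Hr4, Hr39 and Eip78C pass the signal on to later genes such as ftz-f1. Many of these genes have several promoters and long introns, so the position of a peak relative to each start site matters in reading it.

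The sequence under the summit is shown for the strongest peak of 5 of the genes, to let the letters be read beside the word counts given further on. None is printed for usp, whose summit lies in an exon, or for EcR and Hr3, and Eip78C had no peak. The bases are those of RefSeq Release 6 (dm6), plus strand, with 100 bp on either side of the summit. Capitals mark the transcription factor words found. In the strongest peak of Hr4, in an intron and the highest of all 23 by pooled signal, none of the 8 words searched was found (chrX:1951802-1952002).
Hr4, intron peak: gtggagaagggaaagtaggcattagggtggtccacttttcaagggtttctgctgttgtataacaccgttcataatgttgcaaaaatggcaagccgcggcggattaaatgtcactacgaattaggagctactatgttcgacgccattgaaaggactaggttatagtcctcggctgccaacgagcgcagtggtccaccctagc
The strongest peak of Eip75B had its summit 5 bp upstream of the start of Eip75B-RC, and only bases outside the transcript are printed (chr3L:17999822-17999926). The gene lies on the minus strand, so its transcript runs to the left from the first base shown, and the capitals mark GAGAG, the word of the GAGA factor.
Eip75B, start of Eip75B-RC: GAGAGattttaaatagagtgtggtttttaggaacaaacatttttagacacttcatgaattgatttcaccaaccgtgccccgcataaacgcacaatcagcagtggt
A pair of intron peaks of Eip75B is shown because AGATGGCGC stood in both, beginning within 10 bp of the summit (chr3L:18019737-18019937 and chr3L:17988244-17988444). They were added after their letters had been seen.
Eip75B, intron peak after Eip75B-RG: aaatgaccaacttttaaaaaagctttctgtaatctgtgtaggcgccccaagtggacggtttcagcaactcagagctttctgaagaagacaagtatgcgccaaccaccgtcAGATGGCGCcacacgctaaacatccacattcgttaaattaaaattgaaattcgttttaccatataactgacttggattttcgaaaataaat
Eip75B, intron peak after Eip75B-RC: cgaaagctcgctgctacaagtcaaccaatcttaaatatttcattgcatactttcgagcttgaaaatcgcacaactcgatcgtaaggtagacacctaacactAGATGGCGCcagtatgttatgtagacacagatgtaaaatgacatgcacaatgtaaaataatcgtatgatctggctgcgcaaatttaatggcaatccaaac
The only peaks of br (chrX:1618766-1618966), ftz-f1 (chr3L:18769377-18769577) and Hr39 (chr2L:21260919-21261119) held none of the 8 words.
br, intron peak: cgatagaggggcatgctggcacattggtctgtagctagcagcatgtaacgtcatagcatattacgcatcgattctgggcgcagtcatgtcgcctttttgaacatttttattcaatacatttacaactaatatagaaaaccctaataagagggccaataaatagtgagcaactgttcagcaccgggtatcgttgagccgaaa
ftz-f1, intron peak: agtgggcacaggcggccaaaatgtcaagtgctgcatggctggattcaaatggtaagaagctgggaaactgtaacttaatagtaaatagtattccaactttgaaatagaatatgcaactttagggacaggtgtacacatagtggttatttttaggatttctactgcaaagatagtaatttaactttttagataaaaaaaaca
Hr39, peak beyond the gene: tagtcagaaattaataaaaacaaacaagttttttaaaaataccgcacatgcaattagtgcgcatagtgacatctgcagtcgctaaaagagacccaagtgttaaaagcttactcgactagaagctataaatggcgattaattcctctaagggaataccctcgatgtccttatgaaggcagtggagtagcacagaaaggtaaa

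Of the 200 pooled candidate regions at the 9 genes, 23 had passed IDR, which is 11.5% (exact 95% binomial interval 7.43 to 16.8, counting error only). Over the whole pooled list 7.95% of 29347 candidates passed. Hr4 and Eip75B together held 15 of the 23. Without Hr4 the share was 8.09% (4.49 to 13.2), and without Hr4 and Eip75B it was 6.56% (2.87 to 12.5). Per length, the 9 loci held 0.429 peaks in 10 kb, against 0.210 over all protein-coding loci, and the density was 0.229 without Hr4 and Eip75B.

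**Figure D1:**
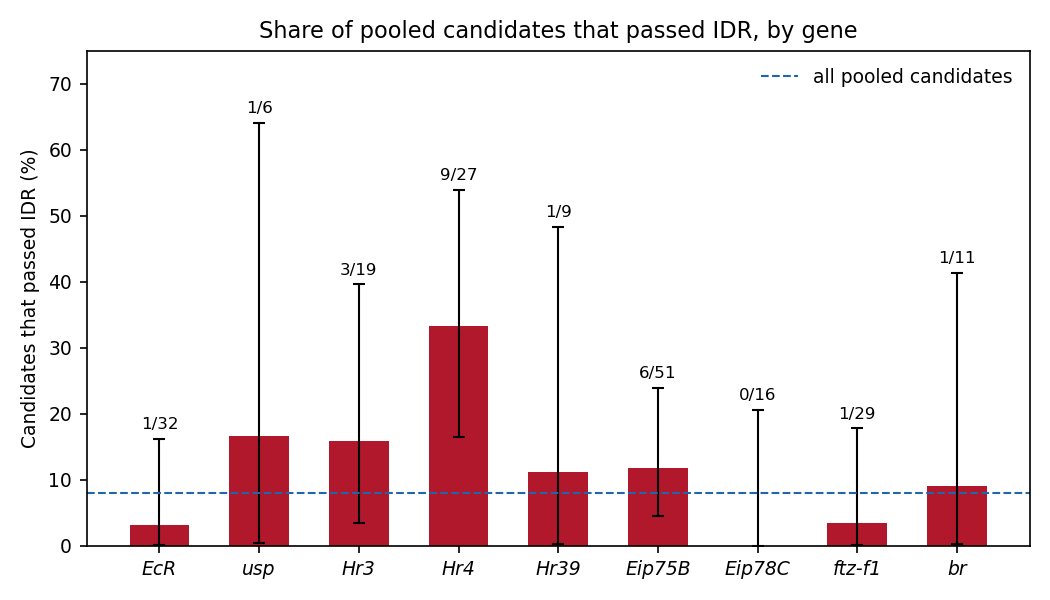
Share of pooled candidates that passed IDR at each of the 9 genes, in percent. Bars carry exact 95% binomial intervals (counting error only), the numbers above give peaks over candidates, and the dashed line is the share over the whole list (7.95%). The interval of Hr4 alone lies above the line.

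Of the 9 genes, 8 had at least 1 peak, against 27.4% of the 11296 protein-coding genes that had a candidate. The 9 genes are long, however, with a median of 50.7 kb against 2.53 kb over the protein-coding genes with a candidate, and they held 6 to 51 candidates each against a median of 3. Of the 1708 genes with at least 6 candidates, 54.8% had a peak. That cut is the number at usp, and the other members all held more. The 54.8% is therefore not matched to their numbers of candidates. Number of candidates and having a peak moved together, and their part in the count of 8 was not tested beyond this. On X, 11 of 44 member candidates had passed (25.0%, 13.2 to 40.3), against 9.99% over the whole chromosome. On the autosomes 12 of 156 had (7.69%, 4.04 to 13.1), against 7.60%. Of the 11 on X, 9 were at Hr4.

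By pooled signal the 23 peaks lay in the upper middle of the list. Their signal ran between 73.2 and 246 with a median of 119, against a median of 105 over all 2334 peaks, and 16 of the 23 stood above that median. Of the 23, 2 were among the strongest 233 of the 2334 peaks, at Hr4 and at Hr3. With so few peaks, 2 of 23 is not shown to differ from 233 of 2334. The IDR list ended at 72.4625, and the strongest pooled candidate outside it had 72.4509. A region that passed was thus one above a cut on pooled signal. The member peak nearest to that cut was that of ftz-f1 at 73.2. The strongest candidate of these genes that did not pass, also at ftz-f1, had 65.8.

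**Figure D2:**
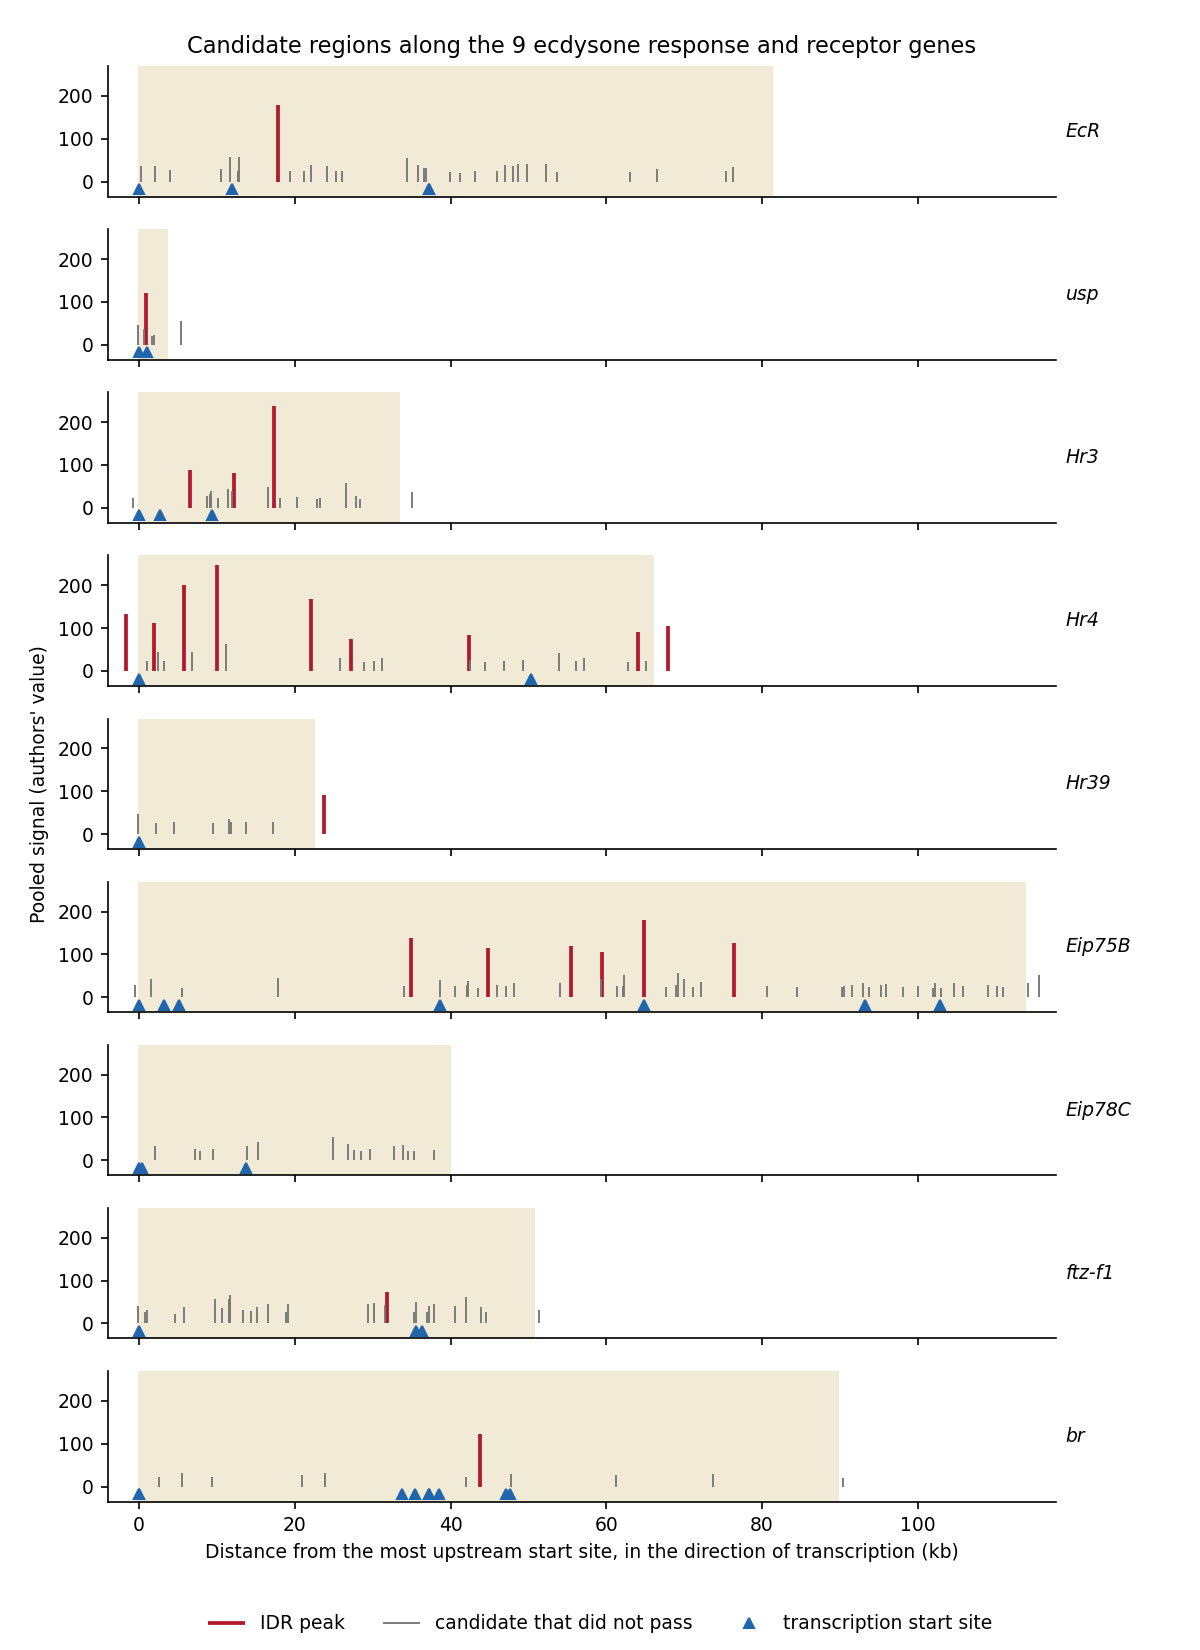
Candidate regions along each gene, with distance from the most upstream start site in the direction of transcription (kb) on the x axis and pooled signal (authors' value) on the y axis. Red lines are peaks that passed IDR, grey lines candidates that did not, triangles start sites and shading the gene body. Peaks stand all along Hr4 and in the middle part of Eip75B, while Eip78C has none.

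The gene of the hormone receptor itself had 1 peak in the list. EcR (FBgn0000546, 2R, 6087873 to 6169087, minus strand) is 81.2 kb long with 6 transcripts from 4 start sites. Of its 32 candidates 1 passed (3.13%, 0.0791 to 16.2), an interval that takes in the 7.95% of the whole list. That peak (6151073 to 6151472) lay in intron 3 of EcR-RA, 5856 bp downstream of the start shared by EcR-RD and EcR-RE, with a pooled signal of 179 and rank 381 of 2334. Its signal was 89.3 in replicate 2 (rank 418) and 87.1 in replicate 3 (rank 395), so it stood at nearly the same place in both lists. A region next to the start of EcR-RD and EcR-RE came through in replicate 3 alone, with rank 2317 there and 8384 in replicate 2, and it reached only rank 3539 in the pooled list. All 4 starts of EcR had a pooled candidate within 500 bp, and none of these candidates passed.

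The partner of EcR was different in layout, with its peak at a promoter. usp (FBgn0003964, X, 2038798 to 2042311, minus strand) spans 3.51 kb with 2 start sites and had 6 candidates, of which 1 passed (16.7%, 0.421 to 64.1). The peak (2041289 to 2041688, signal 121, rank 892) had its summit 177 bp upstream of the start of usp-RA and in exon 2 of the longer usp-RB. It ranked 937 in replicate 2 with a signal of 62.1, and 979 in replicate 3 with 56.5. The genes Actn, which encodes alpha-actinin, CG4313 and CG4325 lie near enough to share this peak. The upstream start, that of usp-RB, had a candidate of signal 46.8 at 129 bp, which did not pass.

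Eip75B (FBgn0000568, 3L, 17950953 to 18064696, minus strand), an early gene whose product is a haem-binding receptor related to vertebrate Rev-erb, had 6 peaks among 51 candidates (11.8%, 4.44 to 23.9). Only 7 genes had more peaks, but per length 2688 protein-coding genes were denser than its 0.510 peaks in 10 kb. That rank depends on gene length, since a short gene is dense with 1 peak. All protein-coding loci together held 0.210. The gene is 114 kb long and its 7 transcripts each have a start of their own. The strongest peak (17999626 to 18000025, signal 179.9, rank 375) stood at the start of Eip75B-RC, printed above, with rank 265 in replicate 2 and 595 in replicate 3. No peak lay within 500 bp of the other 6 starts of the gene, although 5 of them had a pooled candidate there, with signals between 22.1 and 40.9.

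The other 5 peaks of Eip75B lay inside introns. Intron 3 of Eip75B-RF, the longest transcript, is 65.2 kb long and held 25 candidates and 5 peaks, that at the start of Eip75B-RC included. Of the 4 others in this intron, the peak of signal 139 (18029586 to 18029985) lay 3754 bp upstream of Eip75B-RG, and that of 115 (18019637 to 18020036) 6195 bp downstream of it. The peaks of signal 119 (18008997 to 18009396) and 105 (18005025 to 18005424) lay 9376 and 5404 bp upstream of Eip75B-RC. The remaining one (17988144 to 17988543, signal 127, rank 813) lay in intron 4, 11477 bp downstream of Eip75B-RC. The replicates placed that last peak alike, at rank 759 in replicate 2 and 642 in replicate 3. They differed more for the peak 6195 bp downstream of Eip75B-RG, with rank 631 in replicate 2 and 2218 in replicate 3, and for that 9376 bp upstream of Eip75B-RC, with 1851 in replicate 2 and 635 in replicate 3.

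br (FBgn0283451, X, 1575132 to 1664869, plus strand), the Broad-Complex, encodes BTB zinc-finger proteins that specify pupal fate, and it had 1 peak among 11 candidates (9.09%, 0.230 to 41.3). The peak (1618666 to 1619065, signal 123, rank 863) lay in intron 1 of most of its 16 transcripts. The nearest of the 9 br starts, that of br-RS, was 3442 bp away, whereas the start of the nested gene Mur2B was 711 bp away. It ranked 722 in replicate 2 (signal 70.1) and 1191 in replicate 3 (signal 51.2). Of the 9 starts of br, only that of br-RM had a pooled candidate within 500 bp, at rank 13898. With 0.107 peaks in 10 kb, br was the thinnest of the 8 genes with a peak.

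Hr4 (FBgn0264562, X, 1941940 to 2007956, plus strand), an orphan receptor that represses early genes and limits ecdysone production in the larva, had 9 peaks among 27 candidates (33.3%, 16.5 to 54.0). Only 2 protein-coding genes had more, by a raw count over a gene of 66.0 kb. Per length, 1790 protein-coding genes were denser than its 1.29 peaks in 10 kb, against 0.210 over all protein-coding loci. Here too gene length sets much of the rank: usp, 3.51 kb long, reached 1.33 with 1 peak. With the gene body alone Hr4 had 7 peaks. Among the strongest 2334 candidates of each replicate, where 7.78% of the 30000 candidates stand by construction, Hr4 had 8 in replicate 2 and 10 in replicate 3. The count was therefore not carried by 1 replicate.

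The strongest Hr4 peaks lay in the 5′ part of the gene, downstream of the start used by Hr4-RC and by all but 2 of the 9 transcripts. Intron 2 of Hr4-RK, 10.4 kb long, held 3 peaks. Their signals were 111 at 1881 bp from the start (1943621 to 1944020), 200.4 at 5775 bp (1947676 to 1947775) and 246 at 9962 bp (1951841 to 1951999). The last of these ranked 182 of 2334, 252 in replicate 2 and 150 in replicate 3, and the middle one ranked 289, with 305 in replicate 2 and 366 in replicate 3. Intron 3 held a peak of signal 169 (1963754 to 1964153), rank 434, at 22014 bp, which ranked 450 in replicate 2 and 494 in replicate 3. Weaker peaks followed in intron 4 (1968887 to 1969286, signal 74.8) and intron 5 (1984070 to 1984469, signal 83.0), 23213 and 8030 bp upstream of the second start, that of Hr4-RE and Hr4-RF. The intron 4 peak was the only one of the 9 missing from the strongest candidates of a replicate, with rank 5724 in replicate 2 and 1661 in replicate 3.

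The outer 3 peaks counted at Hr4 are shared with neighbouring genes. The peak 1720 bp upstream of the gene (1940020 to 1940419, signal 132) lay 87 bp from the start of CG3587, with CG3857 also in reach. That in the 3′ UTR of Hr4-RK (2005825 to 2006224, signal 90.1) is also within reach of PIG-K. That beyond the end (2009636 to 2010035, signal 105) lay 472 bp from the start of PIG-K and is shared with east as well. Neither of the 2 starts of Hr4 had a candidate of the pooled list within 500 bp, although replicate 3 had one of rank 14671 at the first and replicate 2 one of rank 24556 at the second. The nearest in the pooled list were 1041 bp downstream of the first and 1038 bp upstream of the second, and neither of those passed.

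Hr3 (FBgn0000448, 2R, 10203995 to 10237348, minus strand), a receptor of the vertebrate ROR class that is needed for ftz-f1 activation, had 3 peaks among 19 candidates (15.8%, 3.38 to 39.6). All 3 lay in intron 1 of Hr3-RD, which is 26.9 kb long and holds 15 of the candidates. The strongest (10219971 to 10220173, signal 237, rank 197) stood 7926 bp downstream of the start of Hr3-RA, Hr3-RF and Hr3-RH. It had a signal of 93.2 and rank 375 in replicate 2, and 145 and rank 121 in replicate 3. The other two, with signals of 87.3 (10230669 to 10231068) and 82.3 (10224935 to 10225334), lay 2912 bp upstream and 2822 bp downstream of the same start. The upstream one ranked 1261 in replicate 2 and only 3301 in replicate 3. Nested genes share these positions, CG12912 all 3 of them and CG46321 those 2 downstream of the start. CG46321 has a start at the same position as Hr3-RA, Hr3-RF and Hr3-RH, so these distances hold for it as well.

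Hr39 (FBgn0261239, 2L, 21237250 to 21259675, plus strand), a receptor closely related to ftz-f1, had 1 peak among 9 candidates (11.1%, 0.281 to 48.2), and it lay outside the gene. Its summit (21260819 to 21261218, signal 91.3, rank 1491) was 149 bp from the start of l(2)k14505, with CG8671 also in reach, and 23769 bp from the only start of Hr39. At that start a candidate of signal 46.1 stood at 147 bp and did not pass. With the gene body alone Hr39 had 0 peaks.

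Eip78C (FBgn0004865, 3L, 21226609 to 21266503, plus strand), a second Rev-erb-related receptor gene, was the only member with 0 peaks, among 16 candidates, a count that allows a share of up to 20.6% (exact interval). Its strongest candidate had a pooled signal of 54.3 and rank 3990, in an intron 11188 bp downstream of the start of Eip78C-RB. It ranked 2347 in replicate 3, just below the strongest 2334, and 12838 in replicate 2. ftz-f1 (FBgn0001078, 3L, 18750607 to 18801309, minus strand), the competence factor of the prepupa and in the embryo a partner of the pair-rule protein fushi tarazu, had 1 peak among 29 candidates (3.45%, 0.0873 to 17.8). This peak (18769277 to 18769676, signal 73.2, rank 2290) lay in the 33.7 kb intron 2 of ftz-f1-RB, 3733 bp upstream of the start of ftz-f1-RC and ftz-f1-RD. It ranked 1598 in replicate 2 and 4646 in replicate 3. Among the strongest candidates ftz-f1 had 2 regions in replicate 2 and 0 in replicate 3.

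Most member peaks lay in introns and away from the starts of the genes they were counted at. Of the 23 summits, 17 (73.9%, 51.6 to 89.8) were intronic, against 32.9% of all 2334 peaks, and 5 (21.7%, 7.46 to 43.7) were within 500 bp of a protein-coding start, against 52.1%. The candidates of the same genes that did not pass had a like makeup, with 71.2% of 177 in introns and 11.9% at promoters. Of the 5 promoter peaks only that of usp and that at Eip75B-RC were at a start of the member itself. The others belonged by position to CG3587, PIG-K and l(2)k14505. Counted over start sites, 2 of the 34 member starts had a peak within 500 bp (5.88%), against 10.4% of 19252 protein-coding starts. With so few starts these shares are not shown to differ. At 16 of the 34 there was no candidate of the pooled list within 500 bp.

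**Figure D3:**
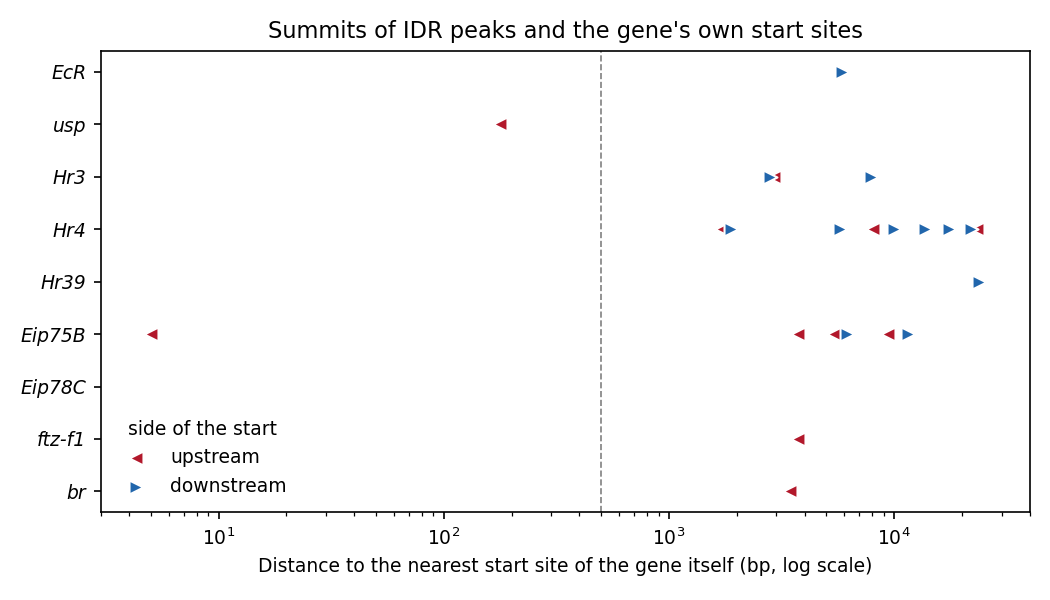
Distance from the summit of each peak to the nearest start site of the gene it was counted at (bp, log scale), by gene, with left-pointing markers for summits upstream and right-pointing markers for those downstream. The dashed line marks 500 bp, and only 1 peak of usp and 1 of Eip75B lie to its left.

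The median distance to the nearest start of the same gene was 5856 bp, between 5 and 23769 bp. Beyond 2 kb lay 19 of the 23 peaks, beyond 5 kb 14 and beyond 10 kb 6. Summits upstream and downstream of that start were about equally common, at 11 and 12. By the rule on loci 9 of the 23 are shared with another protein-coding gene and 14 are not.

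The replicates ranked most of these peaks among their strongest. Of the 23, 20 (87.0%, 66.4 to 97.2) had at least 50% of their length covered by one of the strongest 2334 candidates in both replicates, against 1582 of all 2334 peaks (67.8%). The missing ones were 1 each at Hr3 and ftz-f1 in replicate 3 and 1 at Hr4 in replicate 2. The interval of the 87.0% takes in the 67.8%. The 2 shares were not matched for signal, and 16 of the 23 lay above the median signal of all peaks. Of the 23, 8 ranked higher in replicate 3 and 15 in replicate 2, against 1203 and 1110 over all peaks found in both. The ranks differed by more than 2-fold for 8 (34.8%), against 31.6% of the 2319 peaks found in both. Each replicate alone also put 23 regions of these genes among its strongest 2334, out of 203 candidates in replicate 2 and 173 in replicate 3. The IDR list was made from these replicates, which share a control file per the deposited notes, so this is a description and no separate evidence.

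**Figure D4:**
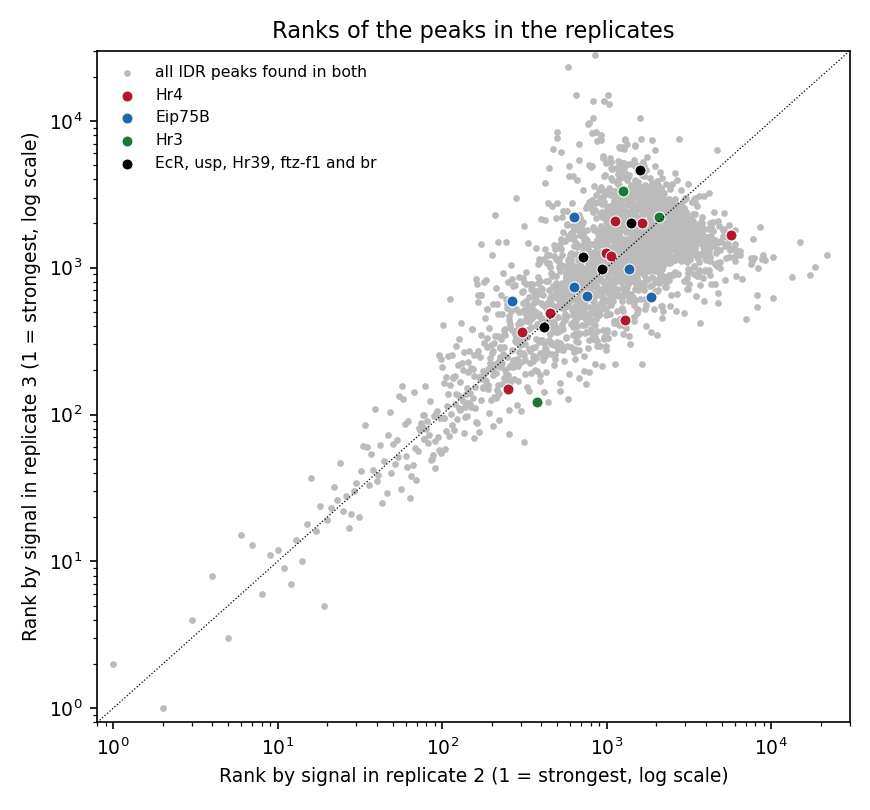
Rank by signal in replicate 2 (x axis) and replicate 3 (y axis) for each peak found in both, 1 being the strongest, on log scales with the line of equal rank dotted. Grey points are all such peaks and coloured points those of the 9 genes, 8 of which ranked higher in replicate 3 and 15 in replicate 2.

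Words known from hormone receptors were not found at these summits. AGGTCA, the half-site of many nuclear receptors, is also part of the ftz-f1 word below. It stood within 100 bp of 0 of the 23 summits on either strand, which allows a share of up to 14.8% (exact interval). It was at 3.73% of all IDR peaks and at 4.96% of the 27013 candidates that did not pass. TCAAGGTCA, the word bound by ftz-f1, was at 0 of the 23, at 0 of the 2334 IDR peaks and at 0.144% of the candidates that did not pass. The inverted repeat bound by EcR with usp was at 0 member peaks and at 1 of the 2334. Its half-sites were allowed to differ from AGGTCA in the search. With shares this low in the whole list, 23 peaks are too few to show a difference.

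Among the other words, GAGAG was found at 5 of 23 summits (21.7%, 7.46 to 43.7), against 25.3% of all IDR peaks and 24.7% of candidates that did not pass. It stood at 3 peaks of Hr4, at 1 of Hr3 and at the start of Eip75B-RC. The core word of the insulator protein CTCF, AGNNGGCGC, was at 4 summits (17.4%, 4.95 to 38.8), against 4.07% of all IDR peaks and 3.09% of candidates that did not pass. These were the peak of EcR, the 3′ UTR peak of Hr4 and the pair of Eip75B intron peaks printed above, and all 4 also held it within 50 bp, against 2.36% of all IDR peaks at that distance. In both Eip75B peaks it read AGATGGCGC, beginning 10 and 1 bp from the summit. Those letters, chosen after they had been seen, stood at 3 of the 23 member peaks, at 1.54% of all IDR peaks and at 0.422% of candidates that did not pass. CAGCTG (an E-box word, other forms of which were not searched), TATCGATA (bound by DREF) and CAGGTAG (bound by zelda) were at 0 of the 23. Over all IDR peaks they were at 10.2%, 3.77% and 0.943%. Each 0 allows a share of up to 14.8% (exact interval), which takes in all of these, so no absence is shown. No allowance was made for searching 8 words at 23 peaks, and no difference in share was tested. A match of letters is a description and does not show which protein was bound.

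Other genes of hormone signalling and of the receptor family had scattered peaks, mostly 1 to a gene. In 3 lists of 50 genes, 18 of 323 candidates had passed (5.57%, 3.34 to 8.66, against 7.95% over the whole list). Of the 50 genes, 14 had a peak and 6 had no candidate. Over all protein-coding genes with a candidate, 27.4% had a peak. Of the 13 other nuclear receptor genes, 4 had 1 peak each. The strongest was at Hr96, a receptor of xenobiotic and lipid responses (signal 189, rank 329), where EMC6 and beta4GalT7 share it. Hr51 had one of signal 102, shared with unc-5. ERR, the oestrogen-related receptor that drives glycolytic genes, had one of 81.6, shared with Atg18a. That of Hnf4, a regulator of lipid and glucose metabolism, had a signal of 95.7 and was not shared.

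Genes that make, carry or remove the hormone held 59 candidates, of which 2 had passed (3.39%, 0.413 to 11.7), an interval that takes in the 7.95% of the whole list. Of the 17 genes, only Ptth, the brain peptide that triggers ecdysone synthesis (signal 107), and Oatp74D, the importer of ecdysone into cells (signal 82.4), had a peak, and both share it with other genes. Of 20 target and cofactor genes, 8 had peaks, 12 in all among 192 candidates (6.25%, 3.27 to 10.7, against 7.95% over the whole list). The strongest were at ImpL2, a secreted insulin-binding protein (194), Eip63E, a cyclin-dependent kinase (159.6), Smr, a corepressor of EcR (152), and ImpL3, lactate dehydrogenase (141). CG46460 shares at least 1 peak of ImpL2. The early gene Eip74EF, named after its values were seen, had 29 candidates and 0 peaks.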

How the data were processed

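ChIP-seq peak lists on build dm6 were used as deposited. Per the deposited notes, each replicate's candidate list was derived from its own alignments with 1 control file, the pooled list from both replicates and the same control, and the IDR list from these. The aligner, peak caller and IDR threshold were not given in the sources used here. The deposited signal, the peak caller's value per region, was used for ranks within a list. Depth is unknown. The summit was the deposited offset added to the region's start. The dm3 lists were not used.

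Genes and transcripts came from Ensembl release 115 (BDGP6.54) and bases from RefSeq Release 6. A promoter is within 500 bp of a protein-coding start. Words were searched on both strands within 100 bp of the summit. A peak was found in a replicate where at least 50% of its length was overlapped. Distances and shares were computed with Python 3.11.15, pandas 2.3.3 and SciPy 1.17.1, after the placement steps had been tested on simulated data. Intervals are exact (Clopper-Pearson, 95%) and cover counting error only, as do the upper limits of shares of 0, which are the ends of these intervals. With 1 group there was no test. Replicates are biological per the labels.

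The members and lists were chosen with earlier results of these data known. The text names every member peak, each member's strongest candidate, genes sharing a member's peak and the 4 genes with the strongest peak of each list. Of the 50 list genes, 4 were matched by a newer symbol. Alternatives were other margins, promoter widths, windows and overlaps, a stricter list, single replicates and the region's middle.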

Additional observations from a re-analysis of the deposited data

How the results depend on the processing

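A count, density or rank was taken to have moved where it changed by over 1.5 times, and a share where it left the exact interval of its main value. Of 48 recomputed values for whole gene sets, 9 moved by these limits. The interval of the promoter share is wide, and its value was 8.70% with the genes' own starts only and 10% with the gene body alone, against 21.7%, without leaving it. The count of member peaks was 20 with the gene body alone, 16 among IDR peaks above the median signal, and 23 with a margin of 5 kb and with either replicate left out. Without Hr4 and Eip75B, a setting added after the data had been seen, the density was 0.229 peaks in 10 kb and the share of candidates that passed 6.56%. With all candidates of each replicate, 100% of the member peaks were found in both, against 99.4% of all IDR peaks. The counts at the small lists moved most. Synthesis, transport and removal genes had 0 peaks with the gene body alone, 4 with a margin of 5 kb and 1 in the stricter list. Other nuclear receptor genes had 2 with the gene body alone and 1 in the stricter list, and targets and cofactors had 7 in the stricter list. Of 88 values for single genes or words, 11 moved by the same limits. Without replicate 2 EcR had 2 regions and ftz-f1 0, and without replicate 3 ftz-f1 had 2. Depth is unknown and there are 2 replicates, so a region below the threshold is not shown to be unbound.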
